A study of Mus musculus with 6 samples.

Results

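The 8 genes described here control the step from G1 to S phase of the cell cycle: the D-type cyclins Ccnd1, Ccnd2 and Ccnd3, their kinases Cdk4 and Cdk6, and the pocket proteins Rb1, Rbl1 and Rbl2. They were taken as the rows of the deposited count files that carry these symbols. All 8 symbols were found among 24453 gene rows, and all 8 passed the filter on low counts, so each was tested. RNA sequencing was done on sorted skin cells of mice at postnatal day 0. One group holds 3 libraries labelled Ring1a/b 2KO, in which, by the label, Ring1 (RING1A) and Rnf2 (RING1B) are knocked out; their products are the catalytic subunits with which Polycomb repressive complex 1 ubiquitinates histone H2A. The other holds 3 libraries labelled control. The labels state no allele, Cre driver, genotype of the control mice or number of animals behind a library. Nothing in the labels says that replicates came from separate animals, so the p-values measure the spread between these libraries, which may be partly technical.

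Cyclins D1, D2 and D3 are made in response to growth signals and bind CDK4 or CDK6, and the active kinases phosphorylate the pocket proteins RB (Rb1), p107 (Rbl1) and p130 (Rbl2). Unphosphorylated pocket proteins bind E2F transcription factors and hold down the genes that E2F drives, among them the genes for DNA replication, and Rbl1 is itself a textbook E2F target. RB binds mainly the activating E2F factors, while p107 and p130 bind mainly the repressive ones and, with the MuvB proteins, form the DREAM complex of resting cells. In skin, cyclin D1 is a known mark of proliferating keratinocytes of the basal layer and of the growing hair follicle.

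The libraries held 26.7, 29.9 and 24.8 M counts (M, mega) in the 2KO group and 28.2, 30.4 and 30.8 M in the control group. Levels are given as CPM, counts per M counts after scaling of the libraries by TMM, and 1 count was worth between 0.0323 and 0.0392 CPM. Neither knocked-out gene followed the labels. Ring1 was at 1.84, 7.34 and 14.1 CPM in the 2KO libraries, against 19.5, 22.4 and 3.37 CPM in the control libraries (edgeR adjusted p = 0.537). Rnf2 was at 75.3, 66.4 and 89.2 CPM in 2KO libraries and at 67.7, 79.5 and 47.1 CPM in control libraries (edgeR adjusted p = 0.615). The removed part of each gene is not stated in the labels, so a count over the whole gene does not settle the genotype, and all directions given here are between groups as labelled. Xist, the RNA of the inactive X chromosome of female cells, was high in 2KO replicates 1 and 2 (5360 and 4950 CPM) and in control replicate 3 (4550 CPM), and low in 2KO replicate 3 (10.4 CPM) and in control replicates 1 and 2 (2.48 and 9.27 CPM). The sexes are thus unequally divided between the groups, and values within the Xist-high and the Xist-low libraries are given beside the results.

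The sample labels name the hair follicle, whereas the protocol attached to them describes a sort of interfollicular epidermis on EpCAM, Sca1 and high α6-integrin. Ly6a, which encodes Sca1, lay between 1.92 and 7.28 CPM in all 6 libraries (edgeR adjusted p = 0.932). The 9 basal keratinocyte markers summed to between 23200 and 30900 CPM in 2KO libraries and between 16900 and 29900 CPM in control libraries. None passed the edgeR threshold, and DESeq2 and limma-voom each called 1. Of the 9, 4 had an unadjusted p under 0.05, where 21.6% of all tested genes did in either direction. Of 9 hair follicle progenitor markers, Shh and Lgr5 fell, Tfap2b rose and 6 did not pass, and their sum overlapped (2350 to 3210 CPM in 2KO, 2180 to 3190 CPM in control). These calls rest on single libraries: Tfap2b lost its call when any 1 library other than 2KO replicate 1 was left out (edgeR adjusted p from 0.0653 to 0.182), Lgr5 without control replicate 1 (0.064) or 2KO replicate 3 (0.0872), and Shh without 2KO replicate 2 (0.0512); Tfap2b (0.0769) and Lgr5 (0.0922) also lost theirs with a term for Xist. The suprabasal markers summed to between 1310 and 3920 CPM in 2KO and between 3250 and 11800 CPM in control, and none of the 7 tested passed with edgeR. Their directions were mixed: 4 of 7 log2 fold changes were below 0, and those of Krtdap (0.44), Lor (0.75) and Sbsn (0.25) were above 0. Of these 7, 3 had an unadjusted p under 0.05, and 2 were called lower with DESeq2, 1 with limma-voom and 2 with edgeR without control replicate 1. Among Merkel cell markers Krt18 and Piezo2 rose and 4 of 6 tested did not pass, while DESeq2 called 2 higher and 1 lower. Their sum was 57 to 93.5 CPM in 2KO and 16.5 to 26.8 CPM in control, and in 2KO it was mostly Krt18 (mean 23.9 CPM) and Piezo2 (mean 42.3 CPM). Of the 6 tested, 3 had a log2 fold change below 0, among them Krt20 (-2.56, edgeR adjusted p = 0.119), which was lower in every 2KO library. Atoh1, the defining Merkel cell factor, was at 0, 0 and 0.196 CPM in 2KO and at 0.887, 3.49 and 0.229 CPM in control. Among dermal fibroblast markers Pdgfra rose and 7 of 8 did not pass (662 to 793 CPM in 2KO, 423 to 774 CPM in control). None of the 24 tested endothelial, immune, melanocyte, skeletal muscle and Schwann cell markers passed with edgeR (1 had an unadjusted p under 0.05; DESeq2 called 1 and limma-voom 0), and Cd207, a Langerhans cell marker, had 0 counts in every library. The part of these cell types in the results below was not tested.

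Among the 8 genes, Rbl1 fell in the 2KO libraries and was the only one past the threshold (edgeR quasi-likelihood test, p adjusted by Benjamini-Hochberg over all 14972 tested genes, threshold 0.05). That is 1 of 8 lower and 0 of 8 higher, where over all tested genes 2.42% were lower, 6.61% were higher and 9.02% changed in either direction. Rbl1 and Cdk4 were the 2 of 8 whose groups did not overlap, both with every 2KO library below every control library, a pattern that 13.1% of all tested genes had; the opposite pattern, every 2KO library above every control library, was seen in 0 of 8 and in 15.2% of all tested genes. The 8 log2 fold changes had a median of -0.15, against -0.02 over all tested genes, and 5 of 8 were below 0, against 51.4% of all tested genes. In these bulk samples, fewer cells of a kind and less RNA per cell cannot be told apart.

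**Figure D1:**
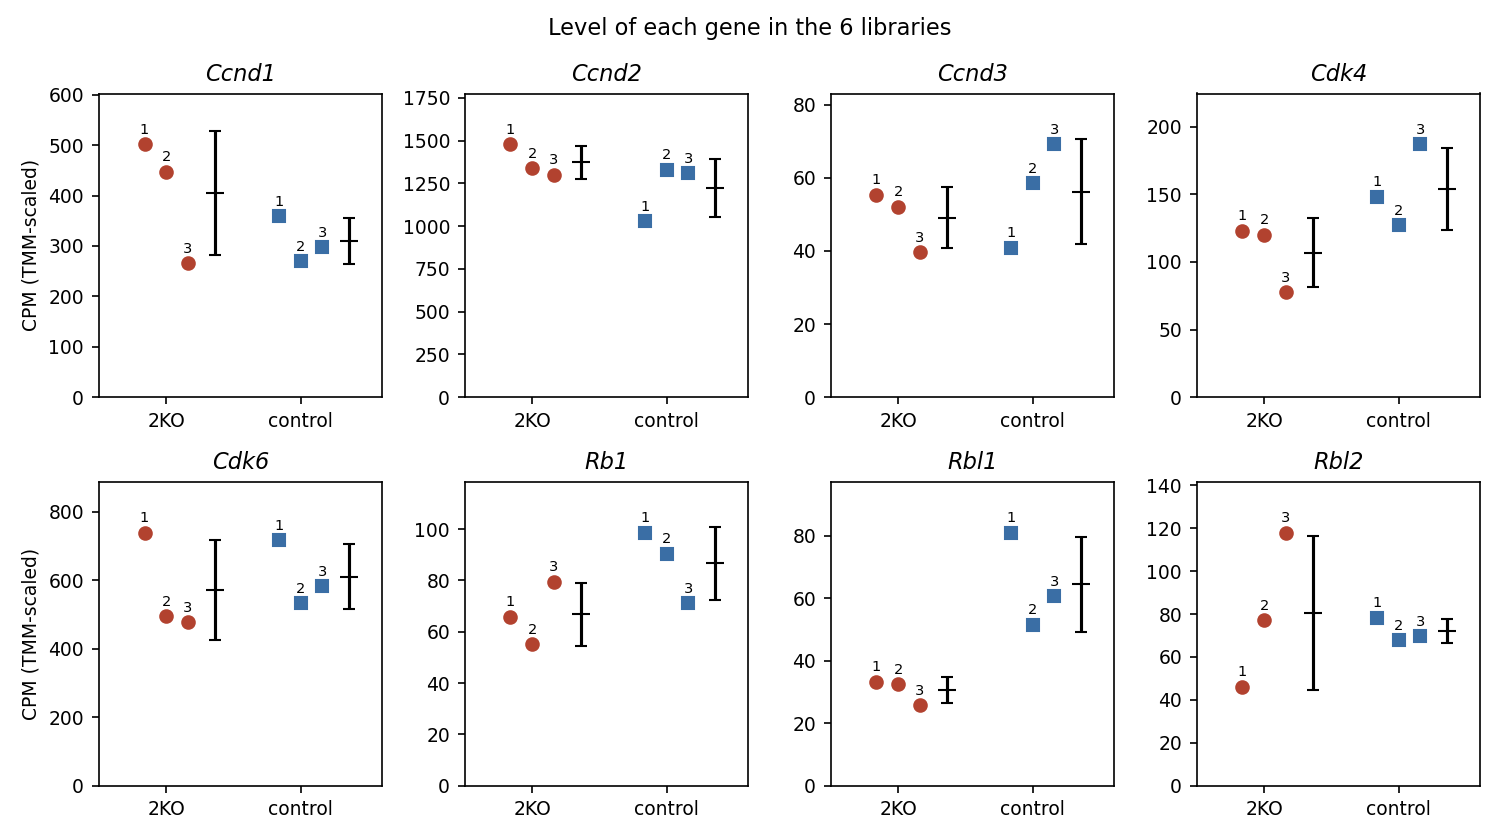
Levels of the 8 genes in CPM (TMM-scaled, linear axis from 0, a scale of its own in each panel) in the 3 libraries of each group; points are libraries with their replicate number, and the bar beside them gives the mean ± SD. The groups are apart for Rbl1 (25.7 to 33.3 CPM in 2KO, 51.5 to 81 CPM in control) and, by a small gap, for Cdk4 (77.7 to 123 CPM in 2KO, 127 to 187 CPM in control), and overlap for the other genes.

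Ccnd1 (GRCm38, chromosome 7, 144929931 to 144939925, minus strand) encodes cyclin D1. It was at 502, 447 and 266 CPM in 2KO replicates 1 to 3, against 359, 270 and 298 CPM in control replicates 1 to 3. Replicates 1 and 2 of the 2KO group were above every control library, and 2KO replicate 3 was below every control library, so the groups overlapped. The means were 405 ± 123 CPM in 2KO and 309 ± 45.3 CPM in control (SD, n = 3 each), and the log2 fold change was 0.39 (SE 0.24, 95% interval -0.15 to 0.93, edgeR adjusted p = 0.405). Its direction differed with Xist: among Xist-high libraries Ccnd1 was at 502 and 447 CPM in 2KO against 298 CPM in control, and among Xist-low libraries at 266 CPM in 2KO against 359 and 270 CPM in control. With 2KO replicate 3 left out, the log2 fold change was 0.64 (edgeR adjusted p = 0.0858).

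Ccnd2 (chromosome 6, 127125162 to 127152193, minus strand) encodes cyclin D2 and took most of the reads of the 3 D cyclins. It was at 1480, 1340 and 1300 CPM in 2KO libraries, against 1030, 1330 and 1310 CPM in control libraries. Control replicate 1 stood below the other 5 libraries, which lay between 1300 and 1480 CPM. The means of 1370 ± 91.9 CPM in 2KO and 1230 ± 171 CPM in control gave a log2 fold change of 0.16 (SE 0.17, edgeR adjusted p = 0.67). This was the narrowest 95% interval among the 8 genes, from -0.22 to 0.54.

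Ccnd3 (chromosome 17, 47505051 to 47599691, plus strand), for cyclin D3, was at 55.4, 52.1 and 39.7 CPM in 2KO libraries, against 40.9, 58.5 and 69.2 CPM in control libraries. The groups overlapped through control replicate 1. Within each Xist class, however, Ccnd3 was lower in 2KO, at 55.4 and 52.1 CPM against 69.2 CPM in the Xist-high control library, and at 39.7 CPM against 40.9 and 58.5 CPM in the Xist-low ones. The log2 fold change was -0.2 (SE 0.24, 95% interval -0.74 to 0.34, edgeR adjusted p = 0.727). A term for Xist gave -0.39 (edgeR adjusted p = 0.342).

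Cdk4 (chromosome 10, 127063534 to 127067920, plus strand) encodes a kinase activated by the D cyclins. It was at 123, 120 and 77.7 CPM in 2KO libraries, against 148, 127 and 187 CPM in control libraries. Every 2KO library was below every control library, with a gap between 2KO replicate 1 (123 CPM) and control replicate 2 (127 CPM) that is small beside the spread within either group. The means were 107 ± 25.3 CPM in 2KO and 154 ± 30.2 CPM in control (SD, n = 3 each). The log2 fold change of -0.53 (SE 0.23, 95% interval -1.05 to -0.01) missed the threshold (edgeR adjusted p = 0.214). Before adjustment its p was 0.0434, in a comparison in which 8.9% of all tested genes were lower with an unadjusted p under 0.05. As the groups did not overlap, Cdk4 was by necessity lower in 2KO within both Xist classes. The values were 123 and 120 CPM against 187 CPM in control, and 77.7 CPM against 148 and 127 CPM in control. The fit with a term for Xist gave a log2 fold change of -0.75 (edgeR adjusted p = 0.0524).

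Cdk6 (chromosome 5, 3341485 to 3531008, plus strand), for the other kinase that binds D cyclins, was at 739, 495 and 478 CPM in 2KO libraries, against 716, 532 and 583 CPM in control libraries. Replicate 1 was the highest library in both groups, and the 2 replicate-1 values were closer to each other than either was to the rest of its group. The means of 571 ± 146 CPM in 2KO and 610 ± 95.2 CPM in control gave a log2 fold change of -0.1 (SE 0.21, 95% interval -0.57 to 0.37, edgeR adjusted p = 0.857). Its sign turned when control replicate 1, 2KO replicate 2 or 2KO replicate 3 was left out (0.05, 0.01 and 0.03).

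Rb1 (chromosome 14, 73183673 to 73325822, minus strand) encodes RB, the retinoblastoma protein. It was at 65.8, 55.1 and 79.4 CPM in 2KO libraries, against 98.6, 90.3 and 71 CPM in control libraries. The groups overlapped only through 2KO replicate 3 and control replicate 3, and within both Xist classes Rb1 was lower in 2KO, at 65.8 and 55.1 CPM against 71 CPM in control and at 79.4 CPM against 98.6 and 90.3 CPM in control. The means were 66.8 ± 12.2 CPM in 2KO and 86.6 ± 14.2 CPM in control, and the log2 fold change was -0.38 (SE 0.21, 95% interval -0.85 to 0.09, edgeR adjusted p = 0.352).

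Rbl1 (chromosome 2, 157145893 to 157204534, minus strand), which encodes p107, fell. It was at 33.3, 32.5 and 25.7 CPM in 2KO libraries, against 81, 51.5 and 60.7 CPM in control libraries. The highest 2KO library was below the lowest control library, and the gap between them exceeded the range within the 2KO group. The means were 30.5 ± 4.19 CPM in 2KO and 64.4 ± 15.1 CPM in control (SD, n = 3 each), a ratio of 0.474 that rests on 2477 counts in 2KO and 5733 in control. The log2 fold change was -1.08 (SE 0.23, 95% interval -1.6 to -0.56, edgeR adjusted p = 0.0194). As the groups did not overlap, Rbl1 was by necessity lower within both Xist classes. The values were 33.3 and 32.5 CPM in 2KO against 60.7 CPM in control, and 25.7 CPM in 2KO against 81 and 51.5 CPM in control. With a term for Xist the log2 fold change was -1.1, narrowly past the threshold (edgeR adjusted p = 0.0499). The call was lost, with the direction kept, when any of 4 libraries was left out: control replicate 1 (log2 fold change -0.86, edgeR adjusted p = 0.0748), control replicate 3 (-1.12, adjusted p = 0.0511), 2KO replicate 2 (-1.12, adjusted p = 0.0562) or 2KO replicate 3 (-0.95, adjusted p = 0.0687). It was kept without control replicate 2 (-1.22, edgeR adjusted p = 0.0245) and without 2KO replicate 1 (-1.13, edgeR adjusted p = 0.0376).

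Rbl2 (chromosome 8, 91070057 to 91123844, plus strand), for p130, was the most variable of the 8 within the 2KO group. It was at 46.2, 77.2 and 118 CPM in 2KO libraries, against 78.4, 67.8 and 69.7 CPM in control libraries. The 2KO libraries held both the lowest and the highest of the 6 values, and the coefficient of variation was 44.6% in 2KO and 7.85% in control. The means of 80.3 ± 35.8 CPM in 2KO and 72 ± 5.65 CPM in control gave a log2 fold change of 0.16 (SE 0.3, 95% interval -0.51 to 0.83, edgeR adjusted p = 0.829). The sign rests on 2KO replicate 3, without which it was -0.2 (edgeR adjusted p = 0.756).

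**Figure D2:**
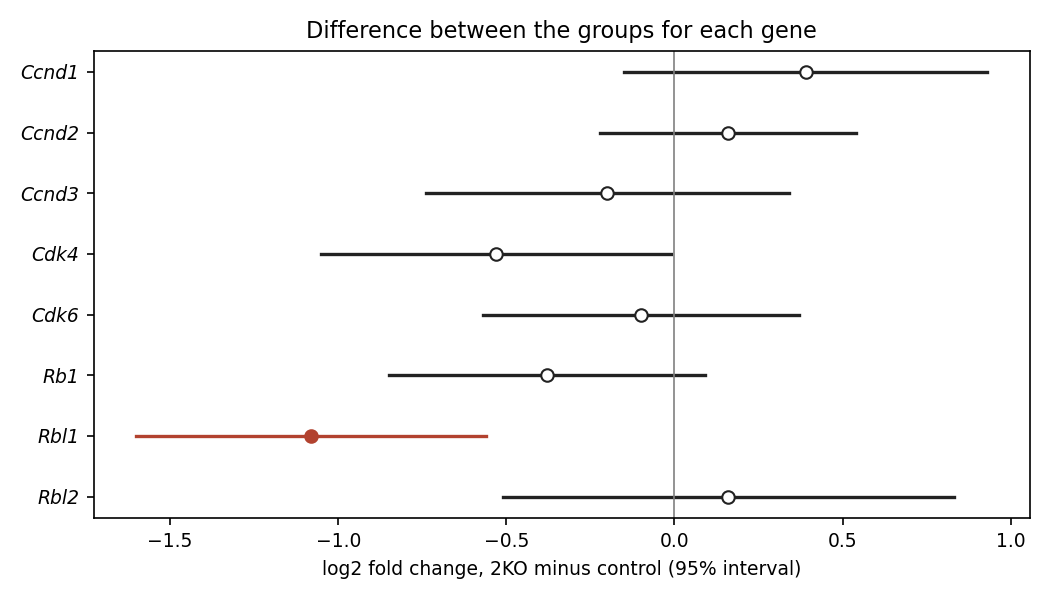
Log2 fold change (2KO minus control) of each gene with its 95% interval, from the edgeR fit over all 14972 tested genes; the filled red point passed the adjusted threshold and open points did not. The interval of Rbl1 runs from -1.6 to -0.56, that of Cdk4 ends at -0.01, and those of the other 6 genes cross 0.

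Taken by Xist class, 4 of 8 genes (Ccnd3, Cdk4, Rb1 and Rbl1) were lower in every 2KO library than in every control library of the same class, in both classes. That held for 21.9% of all tested genes, and each class sets only 1 library of one group against 2 of the other. For Cdk4 and Rbl1 it follows from groups that did not overlap, so for them it is no separate check on sex. The other 4 genes, Ccnd1, Ccnd2, Cdk6 and Rbl2, overlapped or changed direction between the classes.

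The promoter of Rbl1 is shown because Rbl1 is the gene that fell and is a textbook E2F target. The sequence holds the 250 bases before the annotated start (RefSeq, GRCm38.p6, chr2:157204535-157204784, minus strand), with the match to an E2F letter pattern in capitals, beginning 18 bases before the start.
Rbl1: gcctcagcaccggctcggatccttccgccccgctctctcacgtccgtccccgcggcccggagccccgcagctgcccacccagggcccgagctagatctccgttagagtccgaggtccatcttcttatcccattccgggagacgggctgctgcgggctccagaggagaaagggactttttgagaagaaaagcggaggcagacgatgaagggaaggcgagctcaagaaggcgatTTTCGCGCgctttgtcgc

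E2F patterns were searched on both strands, TTTCGCGC, TTTCCCGC, TTTGGCGC and TTTGCCGC, in windows from 250 bases before to 50 bases after the start. Of 27025 genes with a RefSeq promoter, 704 (2.6%) held a match. RefSeq promoters were at hand for 5 of the 8 genes, and among these Rbl1 held a match while Ccnd3, Cdk4, Cdk6 and Rbl2 did not. Ccnd1, Ccnd2 and Rb1 had no entry. In the same windows of the S-phase genes described below, 10 of 19 genes with an entry (52.6%) held a match. So did 4 of 8 E2F and DP factor genes (50%) and 2 of 5 genes of the cyclin E and CDK2 step (40%). Matches were not confined to genes that fell. Cdc6, Orc1 and Mcm7, which missed the threshold, and Cdkn2a, which rose, held one, while Prim1 and Mcm2, which fell, held none. Whether a match goes with a fall was not tested. Windows of 30 bases around the match are set beside that of Rbl1 for 5 S-phase genes that fell, with the matched letters in capitals. A match on the other strand reads as the reverse complement of the pattern. In Mcm5 and Mcm6 a match on each strand overlaps the other and gives a run longer than the pattern.
Rbl1 (chr2:157204534-157204563, minus strand): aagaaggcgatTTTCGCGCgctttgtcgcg
Mcm5 (chr8:75109345-75109374, plus strand): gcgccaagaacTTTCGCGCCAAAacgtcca
Mcm6 (chr1:128359797-128359826, minus strand): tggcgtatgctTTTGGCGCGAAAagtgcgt
Pola1 (chrX:93632275-93632304, minus strand): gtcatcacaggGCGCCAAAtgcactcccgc
Dnmt1 (chr9:20952824-20952853, minus strand): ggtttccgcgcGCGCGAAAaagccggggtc
Uhrf1 (chr17:56304117-56304146, plus strand): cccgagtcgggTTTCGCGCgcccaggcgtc
Rbl1, Mcm5 and Uhrf1 carry the same 8 letters on their coding strand, and the match begins 18 bases before the start in Rbl1, 153 in Mcm5 and 185 in Uhrf1. A match is a description of the letters and was not set against binding data.

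The Cdk4 promoter (RefSeq, GRCm38.p6, chr10:127063285-127063534, plus strand) is shown because Cdk4, the other gene whose groups did not overlap, held 4 copies of the E-box CACGTG, the letters that MYC proteins are known to bind. The pattern reads the same on both strands, and 2187 of the 27025 genes (8.09%) held at least 1 copy. Cdk6 held 1 copy, and Ccnd3, Rbl1 and Rbl2 held none in this window. The capitals mark the E-boxes.
Cdk4: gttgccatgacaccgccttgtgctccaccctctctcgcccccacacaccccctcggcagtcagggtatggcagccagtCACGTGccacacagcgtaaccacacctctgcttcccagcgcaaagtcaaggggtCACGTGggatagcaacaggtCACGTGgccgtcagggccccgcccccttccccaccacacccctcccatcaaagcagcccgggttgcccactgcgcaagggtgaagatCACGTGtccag
Myc and Mycn, which encode MYC proteins, did not pass the threshold: Myc was at 462, 294 and 255 CPM in 2KO and at 216, 313 and 226 CPM in control (log2 fold change 0.42, edgeR adjusted p = 0.377), and Mycn at 14.6, 15.8 and 15.7 CPM in 2KO and at 23.9, 22 and 40.9 CPM in control (log2 fold change -0.91, edgeR adjusted p = 0.0821).

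Levels of different genes were compared per kb of annotated exon (GENCODE vM21, all exons of a gene merged). The choice of length bears on the order of the genes, so means per kb of the longest transcript are added where it changes. On the scale of merged exons Ccnd2 had the highest level of the 8, at 146 ± 9.77 CPM per kb in 2KO and 130 ± 18.2 in control, followed by Ccnd1 at 85.9 ± 26.2 in 2KO and 65.6 ± 9.62 in control. The kinases came next and overlapped each other in control, where Cdk6 was at 43.6 ± 6.81 and Cdk4 at 47.4 ± 9.29 CPM per kb, with 40.8 ± 10.5 for Cdk6 and 32.9 ± 7.78 for Cdk4 in 2KO. Per kb of the longest transcript the order in 2KO turned, with means of 49.5 for Cdk6 and 52 for Cdk4 in 2KO and 53 for Cdk6 and 75 for Cdk4 in control. The pocket proteins and Ccnd3 were lowest. Rb1 was at 11.1 ± 2.03 CPM per kb in 2KO and 14.4 ± 2.35 in control, and Rbl2 at 10.6 ± 4.74 in 2KO and 9.52 ± 0.747 in control. Per kb of the longest transcript their order in 2KO turned, with means of 14.3 for Rb1 and 16.3 for Rbl2. In control these means were 18.6 for Rb1 and 14.6 for Rbl2. Rbl1 was at 5.09 ± 0.7 CPM per kb in 2KO and 10.7 ± 2.52 in control, so that within control its level overlapped that of Rbl2, and within 2KO that of Ccnd3 (5.59 ± 0.946 in 2KO, 6.4 ± 1.63 in control). Per kb of the longest transcript Rbl1 was the lowest of the 8 in both groups (6.27 in 2KO, 13.2 in control), and Ccnd3 stood at 12.7 in 2KO and 14.6 in control.

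Shares within each family were compared by an exact two-sided permutation test over libraries, whose smallest p with 3 libraries against 3 is 0.1. Of the pocket protein signal per kb, Rbl1 held 24.6%, 21.9% and 13% in 2KO libraries, against 33.5%, 26.4% and 32.5% in control libraries. The groups did not overlap, and the mean share was 11 percentage points lower in 2KO (19.8 ± 6.07% in 2KO, 30.8 ± 3.87% in control, exact permutation p = 0.1). Rbl2 held 27%, 41.2% and 47.1% in 2KO, against 25.8%, 27.6% and 29.6% in control (exact permutation p = 0.3), the overlap lying in 2KO replicate 1. The share of Rb1 differed by 0.213 percentage points (41.8 ± 5.97% in 2KO, 41.6 ± 4.16% in control, exact permutation p = 1). The summed pocket protein level was 22.6, 24.8 and 33 CPM per kb in 2KO and 40.3, 32.6 and 31.1 in control, and overlapped (exact permutation p = 0.3).

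Among the D cyclins, Ccnd2 held the largest share in every library, 62.1 ± 6.35% in 2KO and 64.2 ± 5.97% in control (exact permutation p = 1). Ccnd1 held 35.6 ± 6.29% in 2KO and 32.6 ± 6.51% in control (exact permutation p = 0.9). Ccnd3 held 2.34%, 2.44% and 2.27% in 2KO, against 2.45%, 3.24% and 3.74% in control, and did not overlap (exact permutation p = 0.1), although 2KO replicate 2 and control replicate 1 were nearly equal. Cdk4 held 41.7%, 51% and 41.2% of the kinase signal in 2KO and 47.1%, 50.7% and 57.9% in control (exact permutation p = 0.3). No share can pass 0.05 in this design. With the longest transcript as length, the difference in share (2KO minus control) was -10.5 percentage points for Rbl1, -1.21 for Ccnd3 and -7.22 for Cdk4, and that of Rb1 turned to -0.679.

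**Figure D3:**
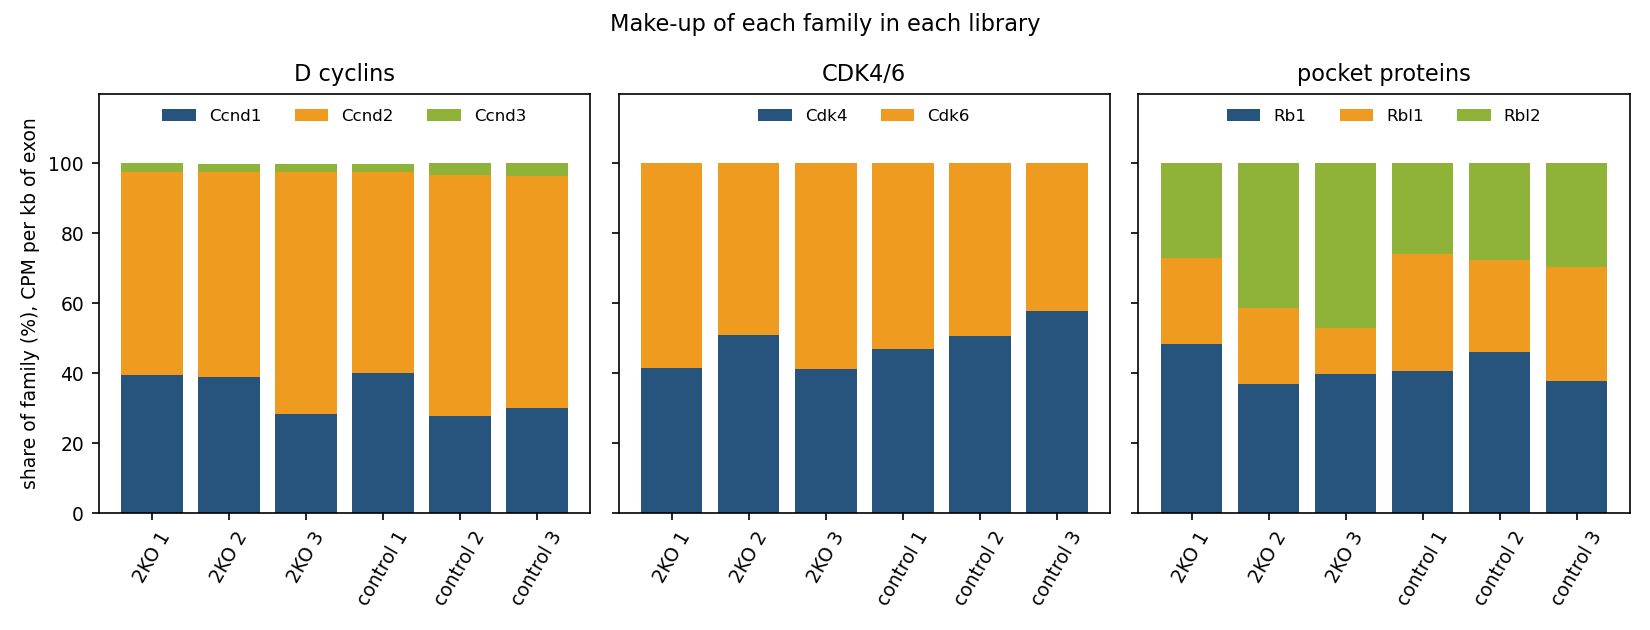
Share of each gene (percent of CPM per kb of exon) within the D cyclins, the kinases CDK4 and CDK6, and the pocket proteins, 1 bar per library, the 2KO libraries left of the control libraries. The Rbl1 part is 13% to 24.6% in 2KO and 26.4% to 33.5% in control; Ccnd2 is the largest part of the D cyclins in all 6 libraries.

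The other genes of the pathway were taken from 9 lists with 89 genes, all of which were tested; 20 fell and 3 rose. Most of the falls were in the list of S-phase genes that E2F is known to drive. Of these 24 genes, 18 fell (75%, where 2.42% of all tested genes fell), none rose, and all 24 had a log2 fold change below 0, with a median of -1.2 against -0.02 over all tested genes. Their summed level was between 659 and 945 CPM in 2KO and between 1540 and 2140 CPM in control. Prim1, a subunit of the primase that starts DNA strands, was at 19.3, 17 and 13.9 CPM in 2KO, against 70.4, 50.7 and 55.4 CPM in control (log2 fold change -1.81, SE 0.23, edgeR adjusted p = 0.00197). Mcm6, a subunit of the replicative helicase, was at 34.8, 41.5 and 46.7 CPM in 2KO, against 172, 96.7 and 138 CPM in control (-1.73, SE 0.24, edgeR adjusted p = 0.0027). In both genes the highest 2KO library was below the lowest control library. The helicase genes Mcm2, Mcm3, Mcm4 and Mcm5 and the helicase partners Gins1 and Gins2 fell too, with log2 fold changes from -1.77 (Gins2) to -1.25 (Mcm4).

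The other S-phase genes past the threshold included Cdt1, a loader of the helicase, Pcna, the sliding clamp, the nucleotide enzyme genes Rrm2 and Tyms, the polymerase gene Pola1, the histone chaperone gene Chaf1a, the cyclin A gene Ccna2, and Dnmt1 and Uhrf1, which copy DNA methylation. Dnmt1 was the highest of these, at 174 ± 19.5 CPM in 2KO and 322 ± 45.2 CPM in control (SD, n = 3 each, log2 fold change -0.89, SE 0.17, edgeR adjusted p = 0.0122). Cdc6, Orc1, Mcm7, Cdc45 and Rrm1 did not pass (edgeR adjusted p from 0.0501 for Rrm1 to 0.121 for Cdc45), nor did Tk1 (log2 fold change -0.15, edgeR adjusted p = 0.742). Groups did not overlap for 23 of the 24, with 2KO lower, where 13.1% of all tested genes had that pattern. Within both Xist classes all 24 were lower in every 2KO library than in every control library of the class. For the 23 this follows from the lack of overlap, so the classes add only Tk1. The number that fell depended on single libraries: it was 7 without control replicate 1, 9 without control replicate 3, 8 without 2KO replicate 2, 9 without 2KO replicate 3, and 12 with Xist as a covariate.

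Upstream of S phase fewer genes passed the threshold, which does not show that their levels were alike in both groups. Of 10 E2F and DP factor genes none passed with edgeR (median log2 fold change -0.25), while DESeq2 called 1 and limma-voom 0. Of the 10, 2 had an unadjusted p under 0.05, where 21.6% of all tested genes did in either direction. The 2 with the smallest p were E2f1, an activating factor, and Tfdp2, a dimer partner of the E2F factors. E2f1 was at 5.69, 11.1 and 3.96 CPM in 2KO, against 22.3, 12.4 and 20.2 CPM in control (log2 fold change -1.4, SE 0.42, edgeR adjusted p = 0.0705), without overlap. E2f1 passed with DESeq2 (adjusted p = 0.0115), with no low-count filter (edgeR adjusted p = 0.0393) and without 2KO replicate 2 (edgeR adjusted p = 0.0306), and in none of the other alternatives. Tfdp2 had a log2 fold change of -0.59 (edgeR adjusted p = 0.191). Of 8 DREAM and MuvB genes none passed with edgeR (median -0.44; 2 had an unadjusted p under 0.05, and limma-voom called 0), and those with the smallest p were Rbbp4, a histone-binding subunit, at 57 ± 6.42 CPM in 2KO and 84.5 ± 3.9 CPM in control (log2 fold change -0.57, edgeR adjusted p = 0.0843, and 0.0398 with DESeq2, which called this gene of the list alone), and Foxm1, a transcription factor of mitotic genes (-0.8, edgeR adjusted p = 0.18). Of the 7 genes of the cyclin E and CDK2 step, which follows the D cyclins, Ccne2 fell and all 7 had a log2 fold change below 0 (median -0.43). In 5 of the 7 every 2KO library was below every control library, a pattern that 13.1% of all tested genes had. Ccne2, for cyclin E2, was at 2.63, 3.7 and 2.9 CPM in 2KO, against 6.67, 7.17 and 12.1 CPM in control (log2 fold change -1.49, SE 0.4, edgeR adjusted p = 0.0471). The call was lost when any single library was left out (edgeR adjusted p from 0.0685 to 0.22) and with limma-voom (adjusted p = 0.0624).

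Of the 7 genes for CDK inhibitors, 2 rose, 1 fell and 4 did not pass with edgeR, so the members of this list moved in opposite directions. Before adjustment 4 of 7 had an edgeR p under 0.05, where 21.6% of all tested genes did in either direction. DESeq2 and limma-voom each called 3 higher and 1 lower. Cdkn2b narrowly missed the threshold (log2 fold change 2.12, SE 0.58, edgeR adjusted p = 0.0528). It was at 4, 3.47 and 5.34 CPM in 2KO, against 0.532, 1.52 and 0.883 CPM in control. Cdkn1c, for p57, was at 105, 79.2 and 58.7 CPM in 2KO, against 10.1, 22.1 and 13.6 CPM in control (log2 fold change 2.4, SE 0.34, edgeR adjusted p = 0.00271). Cdkn2a, which encodes p16 and ARF, was at 2.55, 0.567 and 1.14 CPM in 2KO, 111 counts in all, and had 0 counts in every control library. The 2KO mean of 1.42 CPM was 42.4 times a floor of 3 counts over the control group (0.0334 CPM). This ratio makes no allowance for the spread among the 2KO libraries. The edgeR adjusted p was 0.0166, with 0.0541 without 2KO replicate 1 and 0.0553 with a term for Xist. Cdkn1b, for p27, fell, at 9.22, 12.1 and 7.53 CPM in 2KO against 28.2, 21.7 and 28.9 CPM in control (log2 fold change -1.45, SE 0.27, edgeR adjusted p = 0.0111). Of these genes the p16 product is known to bind CDK4 and CDK6, and p57 and p27 to bind complexes of cyclins with CDKs.

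None of 10 mitosis markers passed with edgeR, although all 10 had a log2 fold change below 0 (median -0.6). DESeq2 called 1, Mki67, and limma-voom 0. Before adjustment 4 of 10 had an edgeR p under 0.05, where 21.6% of all tested genes did in either direction. Mki67, the Ki-67 proliferation marker, was at 764, 489 and 490 CPM in 2KO, against 2010, 714 and 931 CPM in control (log2 fold change -1.07, SE 0.36, edgeR adjusted p = 0.113). Control replicate 1 was more than 1000 CPM above the other 5 libraries, and 2KO replicate 1 was above control replicate 2. Ccnb2, for cyclin B2, had a log2 fold change of -0.87 (edgeR adjusted p = 0.166).

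Neither the 7 genes of D cyclin turnover and CDK4 folding (median log2 fold change -0.21) nor the 7 chromatin partners of RB (median -0.13) held a gene past the threshold with edgeR, DESeq2 or limma-voom, and none had an unadjusted p under 0.05 with edgeR. In the turnover list the smallest p belonged to Skp2, the F-box protein that marks p27 for degradation (-0.51, edgeR adjusted p = 0.382), and to its cofactor gene Cks1b (-0.4, edgeR adjusted p = 0.45). Among the RB partners it belonged to the histone deacetylase gene Hdac1 (-0.35, edgeR adjusted p = 0.445) and the histone methyltransferase gene Suv39h1 (-0.35, edgeR adjusted p = 0.515). Of 9 genes listed as activators of D cyclin transcription, Ctnnb1, which encodes β-catenin, rose and 8 did not pass with edgeR (median -0.33). DESeq2 called 1 higher and 2 lower, and limma-voom 1 higher and 1 lower. In the edgeR fit 5 of 9 had an unadjusted p under 0.05, where 21.6% of all tested genes did in either direction. Beside Ctnnb1 these were Gli2 (log2 fold change -0.62, edgeR adjusted p = 0.0579), Mycn (-0.91, 0.0821), Gli1 (-0.65, 0.13) and Lef1 (-0.52, 0.218), all with lower means in 2KO. Ctnnb1 was at 2860, 2480 and 2830 CPM in 2KO, against 1760, 1360 and 1590 CPM in control (log2 fold change 0.79, SE 0.18, edgeR adjusted p = 0.0231). It lost the call without control replicate 2 (edgeR adjusted p = 0.109) or control replicate 3 (edgeR adjusted p = 0.0695).

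**Figure D4:**
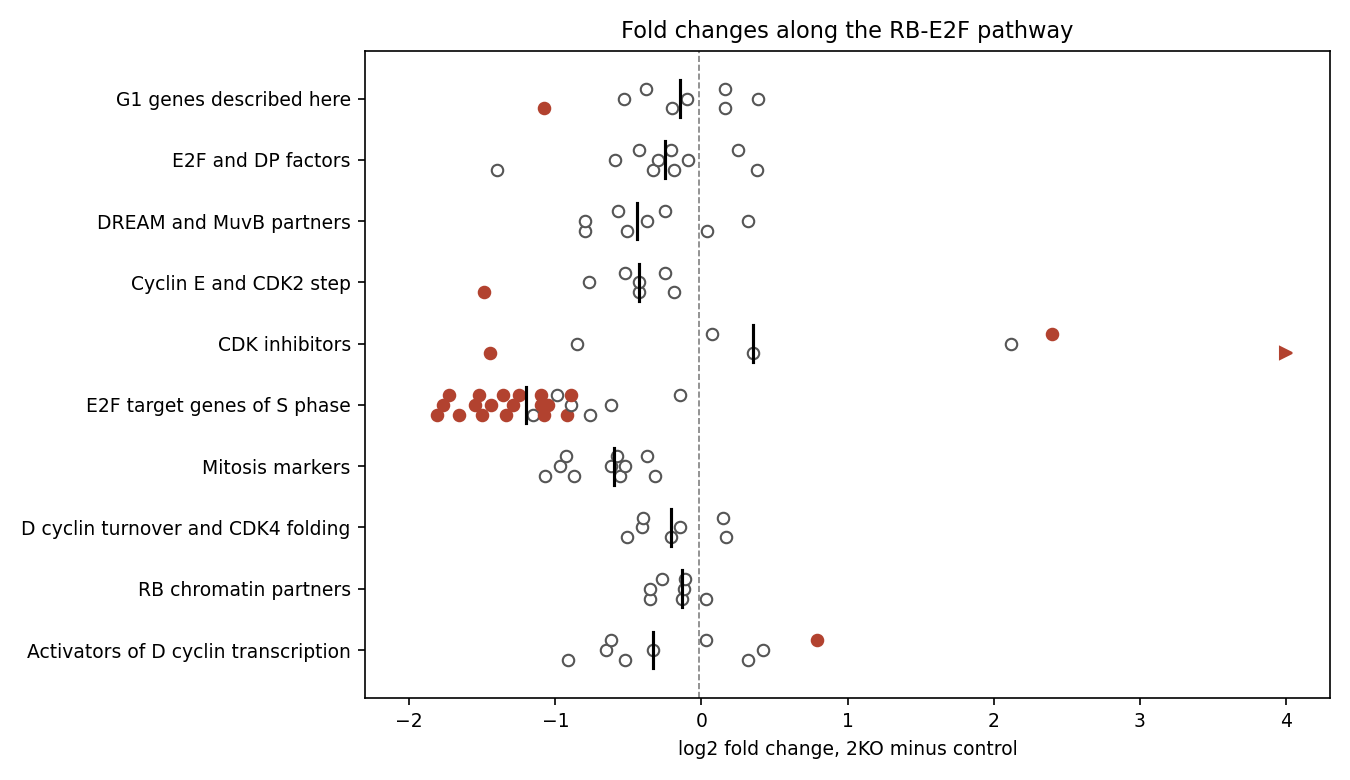
Log2 fold change (2KO minus control) of the 8 genes, in the top row, and of the 89 other pathway genes by list; filled red points passed the adjusted threshold, vertical bars are medians, the dashed line is the median of all tested genes, and the triangle is Cdkn2a, whose fitted value lies beyond the axis because the control libraries held 0 counts. The S-phase genes lie to the left, with a median of -1.2, and the 3 genes that rose are Cdkn1c, Cdkn2a and Ctnnb1.

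By the root mean square difference of log2 CPM over the 6 libraries, after each gene was centred on its own mean, the genes with the profile most like that of Rbl1 were H2afz (0.085), BC055324 (0.091) and Chek1 (0.091). H2afz, for the histone variant H2A.Z, was at 28, 23.5 and 19 CPM in 2KO, against 59.8, 36.2 and 47.5 CPM in control. Chek1, for a checkpoint kinase, was at 13.1, 14.3 and 9.3 CPM in 2KO, against 31.4, 21.7 and 25.5 CPM in control. As in Rbl1, control replicate 1 was the highest and control replicate 2 the lowest of the control libraries. H2afz (edgeR adjusted p = 0.0363) and Chek1 (edgeR adjusted p = 0.0341) passed the threshold and BC055324 did not (edgeR adjusted p = 0.0665); since the 3 were chosen for this likeness, these values are a description.

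The labels and processing notes state no strand setting for the counting, so reads in exons shared with a gene on the other strand cannot be assigned. Rbl1 shares no exon base with another annotated gene in GENCODE vM21. Ccnd1 shares 23.36% of its exon length with Oraov1 and Cdk4 shares 19.73% with Tspan31, and neither neighbour passed the threshold. Tspan31 was at 61.8, 53.9 and 45.1 CPM in 2KO and at 53.1, 46.7 and 52.1 CPM in control (log2 fold change 0.08, edgeR adjusted p = 0.868). Rb1 holds Lpar6 within its span, which was at 14.9, 22.3 and 16 CPM in 2KO and at 24.2, 28.9 and 29.3 CPM in control (log2 fold change -0.63, edgeR adjusted p = 0.168), and shares 6.78% of its exon length with it. The remaining shared stretches, of Ccnd2, Ccnd3, Cdk6, Rb1 and Rbl2, each took at most 11.8% of exon length.

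**Figure D5:**
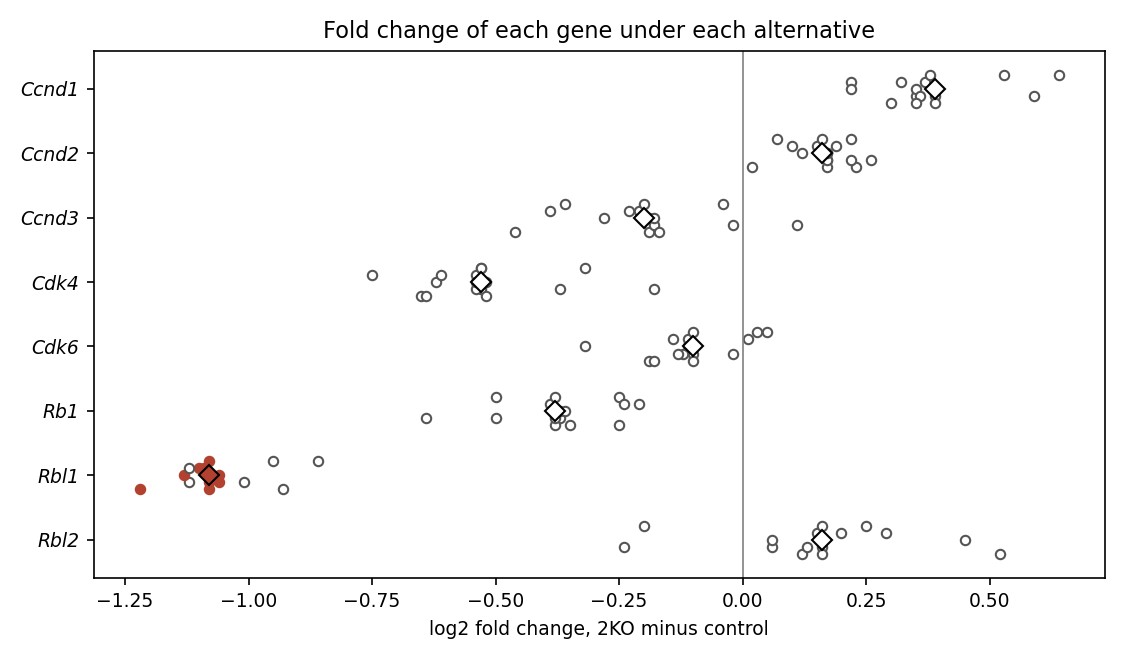
Log2 fold change (2KO minus control) of each of the 8 genes under the 16 alternative fits (circles) and as reported (diamonds); filled red marks passed the adjusted threshold. Rbl1 stays between -1.22 and -0.86 and passes in 10 of 16 alternatives; no other gene passes in any of them, and Ccnd3, Cdk6 and Rbl2 cross 0.

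Under 16 alternative fits (other scaling, filters, tools, covariates and left-out libraries) the log2 fold change of Rbl1 kept its direction, and its adjusted p ranged from 0.000545 with DESeq2 to 0.141 with both replicate-3 libraries left out. The log2 fold changes of Cdk4 (-0.75 to -0.18) and Rb1 (-0.64 to -0.21) stayed below 0, and those of Ccnd1 (0.22 to 0.64) and Ccnd2 (0.02 to 0.26) above 0, with none of these past the threshold. A p that misses the threshold does not show that a level was alike in both groups. For Rbl2 the 95% interval still holds a rise of 0.83 and a fall of 0.51 on the log2 scale.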

How the data were processed

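Sorted skin cells of mice at postnatal day 0 were profiled by RNA sequencing in 6 libraries, 3 labelled Ring1a/b 2KO and 3 labelled control. Per the labels' protocols, 10 ng of RNA was amplified, 100 ng of cDNA was made into libraries and single reads of 100 nt were obtained. The amplification adds spread, and without molecular identifiers reads are not independent molecules, so counting bounds cover counting error only. The authors deposited counts, whole numbers of reads per gene that are not normalized. The submitters' processing notes name the build mm10 and the tools HTSeq 0.6.1, TopHat2 2.0.13, DESeq2 1.6.3 and Cufflinks 2.2.1, without their roles, the annotation or the strand setting. Every row had a gene name.

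From the deposited counts, edgeR 4.0.16 (R 4.3.3) kept 14972 genes with filterByExpr, scaled libraries by TMM and compared the groups with the quasi-likelihood test, without covariates, adjusting p by Benjamini-Hochberg over all tested genes. Intervals are 95% from the fit. The script was tested on simulated data, where the same fit called 13 of 96 genes changed 2-fold (13.5%) and 61 of 98 changed 4-fold (62.2%). These were the only changed genes among 14683 in the simulated fit, whereas 9.02% of all tested genes were called in the data. The adjustment of p depends on that share, so the simulated rates need not hold for this comparison. The 8 genes, the 9 pathway lists, the 10 marker lists and the tests were chosen with earlier results of these data known. Named genes were the 8 members, Ring1 and Rnf2, genes of the sort, genes overlapping a member, and the 3 genes most like Rbl1. Every pathway gene past the threshold was named too or, where a list had none, the 2 with the smallest p. Others named with their values were picked after their values were seen. These were Myc, Mycn, Gli1, Gli2, Lef1, Cdkn2b, the S-phase genes that missed the threshold and the marker genes. Not every gene past the threshold is reported here by name. Alternatives were DESeq2 1.42.0, limma 3.58.1 (voom), other scaling and filters, a replicate block, Xist as a covariate and left-out libraries. Every pair of files of a group differed by more than sampling noise. Exon lengths came from GENCODE vM21 and promoters from RefSeq, GRCm38.p6.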

Additional observations from a re-analysis of the deposited data

How the results depend on the processing

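Every scaling, filter and tool tried kept the call of Rbl1, and none added another of the 8 genes. With Xist as a covariate Rbl1 kept its call only narrowly (log2 fold change -1.1, edgeR adjusted p = 0.0499). Scalings and filters moved the median log2 fold change of all genes by less than 0.1. Leaving out both replicate-1 libraries gave Rbl1 a log2 fold change of -0.93 (edgeR adjusted p = 0.0657), and leaving out both replicate-3 libraries -1.01, so that 0 of the 8 genes was lower in either. Leaving out 1 library at a time gave -1.22 to -0.86 for Rbl1, 0 to 1 of the 8 genes lower, 7 to 16 S-phase genes lower, 8 to 17 pathway genes lower, 615 to 854 genes higher and 184 to 347 lower over all genes. The same gave Ccnd3 -0.36 to -0.02, Cdk6 -0.32 to 0.05 and Rbl2 -0.2 to 0.45. S-phase genes lower numbered 10 without both replicate-1 libraries and 4 without both replicate-3 libraries, and pathway genes lower 11 and 4, with 1 pathway gene higher in the second case. Leaving out both replicate-3 libraries leaves 2KO libraries high in Xist and control libraries low in it, and over all genes gave 309 higher and 72 lower. Over all genes 733 were lower with DESeq2 and 228 with Xist as a covariate. Signs turned, all short of the threshold, for Ccnd3 (0.11) and Rbl2 (-0.24) without both replicate-3 libraries, Rbl2 (-0.2) without 2KO replicate 3, and Cdk6 without control replicate 1 (0.05), without 2KO replicate 2 (0.01) and without 2KO replicate 3 (0.03). They also turned for Ring1 (0.04) and Ly6a (-0.45) with Xist as a covariate, Rnf2 (-0.05) without both replicate-3 libraries, Ly6a without both replicate-1 libraries (-0.06) or 1 library (-0.34 to 0.53), and Tspan31 with Xist (0) or without 1 library (-0.02 to 0.21). The cause was not tested. Mcm2, Mcm3, Mcm6, Prim1 and Cdkn1c passed in all 16 alternatives.

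Correlations did not settle whether the replicate numbers pair the libraries. Same-numbered libraries had deviations from their group mean that correlated at 0.29, 0.089 and -0.076 for replicates 1, 2 and 3. The value of 0.29 was the highest of all pairs between the groups. Deviations within a group are tied to one another by their shared mean, so these correlations are not independent. With the replicate block, Rbl1 was at -1.06 (edgeR adjusted p = 0.017), 1142 genes were higher and 540 lower, and 19 S-phase genes fell; 3 mitosis markers and 3 suprabasal markers were lower, Mki67 among them (-0.95, edgeR adjusted p = 0.015), and Ccne2 (0.057) and Tfap2b (0.0622) lost their calls. Not every library correlated best with its own number. Of the 8 genes Rbl1 had the fewest counts in a library, 654.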
